A study of Mus musculus with 2 samples.

Results

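The Kruppel-like factors described here are 10 genes, Klf2, Klf3, Klf4, Klf5, Klf6, Klf7, Klf9, Klf10, Klf13 and Klf15, of 18193 named genes on the arrays. They were taken by symbol, with every probe set annotated to 1 of them alone, which gave 34 probe sets. The signals come from primary cells of the skull roof of newborn mice, labelled as negative for the myeloid surface protein CD11b, that were driven towards bone-forming osteoblasts with 50 µg/ml ascorbic acid and 10 mM β-glycerophosphate. One group was collected after 5 days and the other after 12 days, both groups received the same supplements and no other treatment, and each day was measured on 1 Affymetrix array. The labels give no mouse strain, genotype or number of animals. There was no replicate, so no SD, standard error or p-value can be given, and every difference below compares these 2 arrays and not the conditions.

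Kruppel-like factors are transcription factors that bind GC-rich and CACCC sequences through zinc fingers at the end of the protein, which are nearly alike across the family and close to those of the SP factors. The rest of the protein sets the partner. Klf2, Klf4, Klf5, Klf6 and Klf7 can act as activators, Klf3 recruits the corepressor CtBP, and Klf9, Klf10 and Klf13 recruit the corepressor Sin3a. Several members answer within minutes to hours to serum, TGF-beta, glucocorticoids or the daily clock, and Sp7 (osterix), of the related SP group, is required for osteoblast formation.

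The stretches before the start sites of Klf4, Klf2 and Klf6 are shown because these genes share an activator role and immediate early induction, yet Klf4 differed between the days while Klf2 and Klf6 did not differ by 2-fold. They are 250 bases each from RefSeq's table for GRCm38.p6, 5′ to 3′, and end at the base before the start site. Capitals mark the GC box, spelled GGGCGG, on either strand. They also mark the CACCC box, which is named after its letters, on either strand. Klf4 lies at chr4:55532476-55532725, minus strand, Klf2 at chr8:72318812-72319061, plus strand, and Klf6 at chr13:5861239-5861488, plus strand.
Klf4: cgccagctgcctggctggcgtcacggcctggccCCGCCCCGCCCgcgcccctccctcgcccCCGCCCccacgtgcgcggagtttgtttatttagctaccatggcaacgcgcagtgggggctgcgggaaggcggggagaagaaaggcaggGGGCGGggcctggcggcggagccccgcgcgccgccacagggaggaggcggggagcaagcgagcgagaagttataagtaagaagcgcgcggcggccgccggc
Klf2: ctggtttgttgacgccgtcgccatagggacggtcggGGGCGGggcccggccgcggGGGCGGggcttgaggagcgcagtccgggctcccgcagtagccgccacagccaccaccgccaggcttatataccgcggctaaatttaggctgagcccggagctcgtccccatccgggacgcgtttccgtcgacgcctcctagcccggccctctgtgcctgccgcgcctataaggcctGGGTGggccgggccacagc
Klf6: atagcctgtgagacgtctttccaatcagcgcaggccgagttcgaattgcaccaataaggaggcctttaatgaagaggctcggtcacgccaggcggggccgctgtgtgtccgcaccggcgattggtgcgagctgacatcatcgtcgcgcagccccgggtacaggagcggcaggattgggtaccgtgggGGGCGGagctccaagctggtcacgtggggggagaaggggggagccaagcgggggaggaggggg

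The Klf4 stretch held 4 GC boxes and no CACCC box, that of Klf2 held 2 GC boxes and 1 CACCC box, and that of Klf6 held 1 GC box. Among 32851 promoters of the same length, 32.7% held a GC box and 52.0% a CACCC box. The E box CACGTG, a binding sequence of clock factors whose bases ACGTG are also the core of the hypoxia response element, was found once in Klf4 and once in Klf6 but not in Klf2, against 6.02% of all promoters. A MEF2 site was found once in Klf2 and not in Klf4 or Klf6, against 1.69% of all promoters. These matches describe letters in the windows and not binding. Of the 10 members, 8 were matched in the table, and Klf5 and Klf10 were not among them. In the other 5 matched members the counts of GC boxes were 6 in Klf3, 3 in Klf13, 1 in Klf7, 1 in Klf15 and 0 in Klf9, and Klf15 held 2 E boxes.

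Of the 10 genes, 1 was at least 2-fold higher at day 12 (Klf4), 1 was at least 2-fold lower (Klf5), 7 lay between, and Klf15 was below the floor on both arrays. The floor was the 60th percentile of each array's signal (46.6 at day 5 and 44.8 at day 12), and a gene counted as measured when its brightest probe set reached it on at least 1 array. A ratio with 1 reading below the floor is a bound, and such a gene is counted at its bound. Among all 10479 measured genes, 3.56% were higher by 2-fold or more at day 12, and 1.73% were lower by as much. A single gene in each direction is the smallest count above 0 that 9 measured members can give, so nothing is read from the members' share. The members' median log2 ratio was 0.01, beside -0.05 for all measured genes. The 7 members between lay within 0.5 of 0 on the log2 scale, as did 80.3% of all measured genes.

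**Figure D1:**
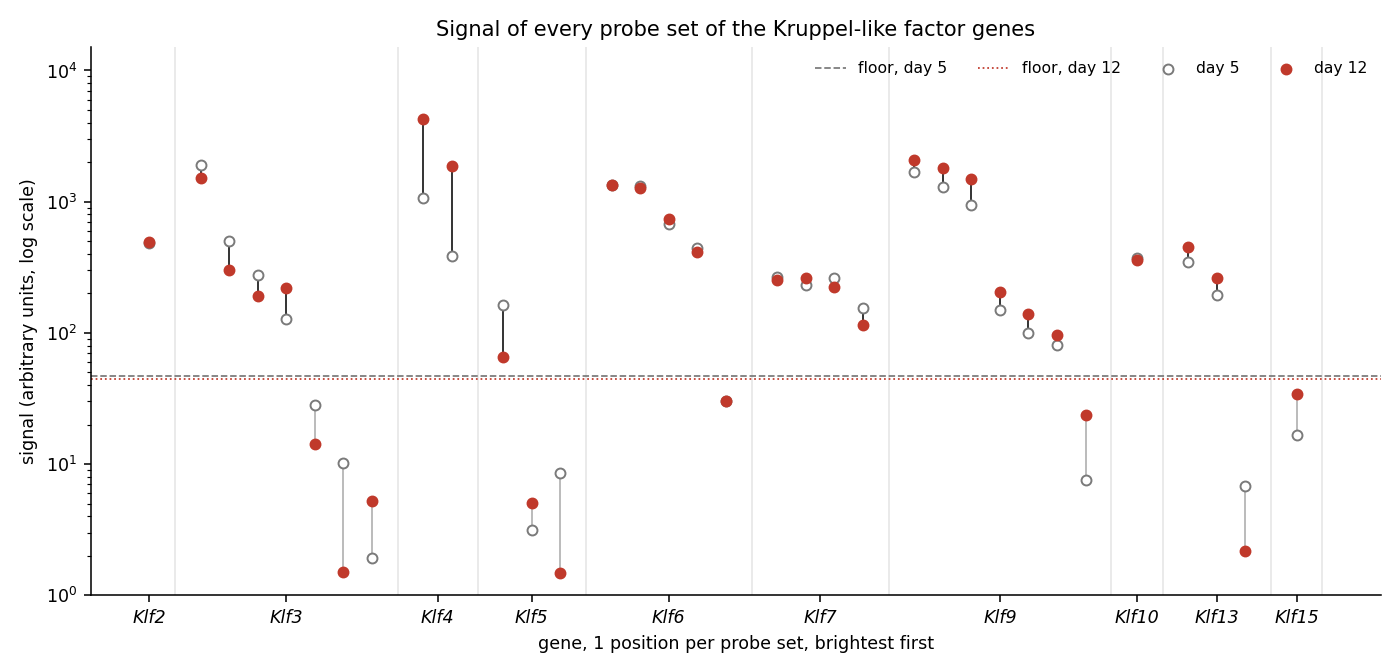
Signal of all 34 probe sets of the 10 genes on a log axis, in arbitrary units, with 1 array per day (open circles, day 5; filled circles, day 12; lines join the same probe set) and each array's floor as a horizontal line. Both Klf4 probe sets were higher at day 12, the measured Klf5 probe set was lower, and 9 probe sets lay below the floor on both days.

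Of the 34 probe sets, 25 were above the floor on both arrays and 9 were below it on both. Among the 25, 2 were at least 2-fold higher at day 12, both of Klf4, and 1 was at least 2-fold lower, that of Klf5. The 9 below the floor were 3 of Klf3, 2 of Klf5, and 1 each of Klf6, Klf9, Klf13 and Klf15, and no ratio is given for them. Repeat measurement came only from several probe sets of 1 gene, which 6 members had. Over the 4446 genes with several measured probe sets, the log2 ratios of a gene's brightest pair differed by a median of 0.17. That value covers probe error and leaves out differences between cultures.

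Klf4, a regulator of cell differentiation best known from epithelia and from the reprogramming of somatic cells, was the member furthest above its day 5 signal. Its brightest probe set read 1063 at day 5 and 4234 at day 12, and its other one read 389 and 1886. Both were clearly brighter at day 12, with log2 ratios of 1.99 and 2.28, and the brightest probe set gave 3.98-fold. At least 98 of the 10479 measured genes had a larger ratio, with genes below the floor on 1 array counted at their bound. The ratio lay between 1.95 and 2.14 under all 10 other ways of scaling, flooring and choosing probe sets that were tried.

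Myeloid cells also carry Klf4, and their markers were higher at day 12 as well. Of 9 measured myeloid markers 7 were at least 2-fold higher, beside 3.56% of all measured genes. Under the alternatives the count was 5 to 8. It was 6 of 9 with the pseudocount and with the median over all probe sets, and 5 of 6 without probe sets of shared sequence. The summed signal of the 10 listed was 4418 at day 5 and 10649 at day 12, or 2.41-fold. Lyz2 (lysozyme) read 2649 and 5984. Csf1r, the receptor of a macrophage growth factor, read 812 and 1778, and its 3 measured probe sets had log2 ratios from 0.69 to 1.13. Tyrobp, a signalling adaptor, read 209.7 and 917.7. Itgam, which encodes CD11b itself, stayed below the floor at 14.6 and 35.4. Of 5 osteoblast markers with values, 4 were at least 2-fold higher, and the summed signal was 3.28-fold higher. The part of either cell type in the Klf4 result was not tested, and in whole cultures a larger share of cells cannot be told apart from more RNA per cell.

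Klf2, the close relative of Klf4 known from blood-flow responses of endothelium and from resting lymphocytes, read 485 at day 5 and 496 at day 12 on its only probe set. The log2 ratio was 0.03, so the arrays gave nearly the same reading. The endothelial markers Pecam1, Cdh5, Kdr, Tek, Emcn and Vwf were below the floor on both arrays, as were all 7 lymphocyte markers with a probe set. Erg, Egfl7 and Esam, the other endothelial markers, read between 48.8 and 78.5.

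Klf5, an activator of cell proliferation in gut epithelium and of early fat cell formation, was the only member at least 2-fold lower. Its single measured probe set read 163 at day 5 and 65.3 at day 12, a log2 ratio of -1.32, or 2.49-fold lower. At least 75 of the 10479 measured genes had a smaller ratio, counted in the same way. The day 12 reading was close to the floor of 44.8, and the other 2 Klf5 probe sets read between 1.47 and 8.58. Klf5 was no longer measured with the floor at the 75th percentile, or when probe sets ending in _a_at were left out with those of shared sequence. The median over all 3 probe sets gave -0.06, which is the ratio of the floors themselves, since 2 of the 3 lay below them on both arrays.

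Markers of other cell types were set beside Klf5. The epithelial markers Krt5, Krt8, Krt14, Krt18 and Cdh1 were below the floor on both arrays, and Epcam read 37.8 and 68.3. Of 5 measured fat cell markers 1, the lipoprotein lipase gene Lpl, was 2.11-fold higher, and 3.56% of all measured genes were at least 2-fold higher. Adipoq, the adiponectin gene, read 75.1 at day 5 and 17.5 at day 12, below the floor, so its log2 ratio of at most -0.75 leaves a 2-fold difference possible. With the floor at the 50th percentile or with the pseudocount, 1 fat cell marker was at least 2-fold lower. Fabp4, a fatty acid carrier, read 159 and 89.4, a log2 ratio of -0.83, with -0.19 in its other measured probe set. Pparg, the main factor of fat cell formation, read 130.0 and 89.3, and Cebpa had a log2 ratio of -0.12. Chondrocyte markers were lower at day 12, with 5 of 8 at least 2-fold lower, beside 1.73% of all measured genes. Their summed signal was 20927 at day 5 and 8923 at day 12. Their part in the Klf5 result was not tested.

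Klf6, an immediate early factor present in most tissues, differed little in all 4 measured probe sets. The brightest read 1331 at day 5 and 1339 at day 12, the next 1311 and 1266, and the others 676 and 740.1, and 447 and 416. Their log2 ratios spanned -0.10 to 0.13, on both sides of 0. Klf7, named for its wide expression and needed in neurons, was also on both sides, with 4 probe sets between 115.2 and 267 and log2 ratios from -0.43 to 0.18. The gene-level log2 ratios of 0.01 for Klf6 and -0.08 for Klf7 changed sign between scalings, so neither gets a direction here.

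Klf3, a CtBP-dependent repressor known from fat, muscle and blood cells, gave probe sets that disagreed. The brightest read 1896 at day 5 and 1515 at day 12, a log2 ratio of -0.32. The next ones read 499 and 303 (log2 ratio -0.72) and 276 and 192 (-0.52). The fourth went the other way, from 129 to 220 (log2 ratio 0.77). The range over the probe sets was 1.49 on the log2 scale, against a median range of 0.25 over all genes with several measured probe sets. The gene-level ratio was below 0 under all 10 alternatives and never reached 2-fold. It lay between -0.42 and -0.31, except for -0.06 with the median over all 7 probe sets, again the ratio of the floors.

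Klf9, a thyroid hormone and glucocorticoid target that recruits Sin3a, was the most densely covered member, with 6 measured probe sets. The brightest read 1688 at day 5 and 2089 at day 12, the next 1289 and 1817, and the third 944 and 1481. The dimmer ones read 149.6 and 205, 99.7 and 138.2, and 80.9 and 96.1. All 6 were higher at day 12, with log2 ratios from 0.25 to 0.65 and 0.31 for the brightest, below 2-fold in each. The gene-level ratio was 0.50 when probe sets of shared sequence were left out.

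Klf13, a Sin3a-binding factor first known from T lymphocytes, read 347 and 448 on its brightest probe set and 194 and 261 on the other. Both were higher at day 12, with log2 ratios of 0.37 and 0.43. Klf10, or TGF-beta-inducible early gene, was first isolated from osteoblasts. It read 370 at day 5 and 362 at day 12 on its only probe set, a log2 ratio of -0.03 whose sign turned after loess and quantile normalisation. Klf9, Klf10 and Klf13, the members that recruit Sin3a, did not differ by 2-fold, and neither did 94.7% of all measured genes.

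Klf15, a factor of glucose and amino acid use in muscle, liver and fat, read 16.8 at day 5 and 33.9 at day 12. Both readings were below the floor, and no ratio is given. With the floor at the 50th percentile it was measured at day 12 alone, with a log2 ratio of at least 0.79.

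**Figure D2:**
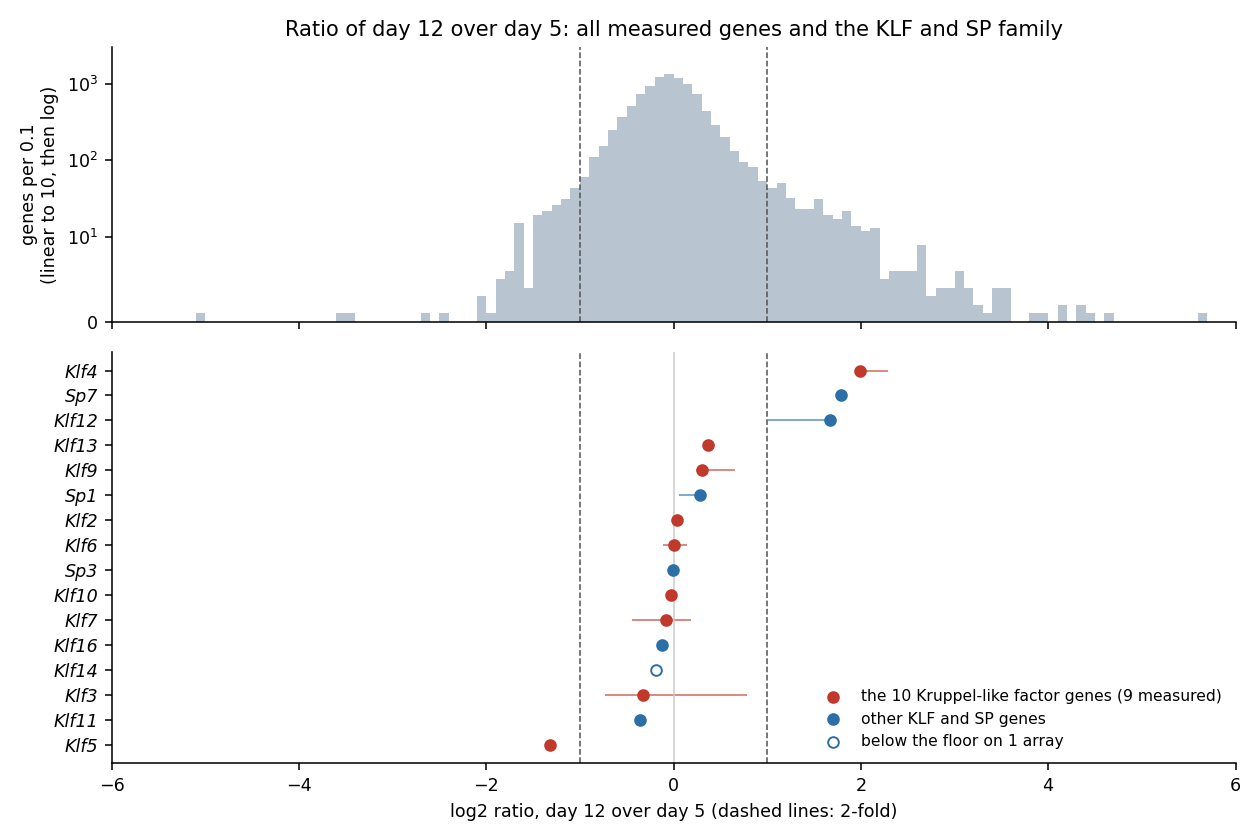
The upper panel counts all 10479 measured genes by log2 ratio of day 12 over day 5 in steps of 0.1, and the lower panel gives each KLF and SP gene (points, brightest probe set; lines, range over its measured probe sets; open point, below the floor on 1 array). Klf4 at 1.99, Sp7 at 1.79 and Klf12 at 1.67 lie to the right of the 2-fold line, Klf5 at -1.32 lies to the left of the other, and Klf3 has the widest range.

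In the rest of the KLF and SP family, 2 of 7 measured genes were at least 2-fold higher and none was at least 2-fold lower. Among all measured genes 3.56% were higher and 1.73% lower by as much. Klf12, a CtBP-binding repressor of the Klf3 type, read 193 at day 5 and 612 at day 12 on its brightest probe set, 3.17-fold. A second read 68.1 and 219, also more than 3-fold higher, and the third read 32.8 and 94.4, from below the floor. Their log2 ratios were 1.67, 1.68 and at least 1.02, so all 3 measured probe sets were past 2-fold. The other Klf12 probe sets read between 0.83 and 7.04, below the floor on both arrays. Sp7 read 330.1 and 1138. Klf11 and Klf16, Sin3a-binding relatives of Klf10, had log2 ratios of -0.36 and -0.12, Klf14 had at most -0.19, and the widely expressed Sp1 and Sp3 had 0.29 and -0.00. Klf1, Klf17, Sp4, Sp5, Sp6 and Sp8 were below the floor on both arrays, and Klf8, Klf18, Sp2 and Sp9 were not analysed here.

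Of 18 measured cofactor and ubiquitin ligase genes of the family, 17 lay between the 2-fold limits, as did 94.7% of all measured genes. The remaining 1 was at least 2-fold higher and none was lower. That gene was Sap30, a subunit of the Sin3 complex, which read 394 at day 5 and 1360 at day 12 (3.46-fold). The scaffolds Sin3a and Sin3b had log2 ratios of -0.16 and -0.37, the corepressors Ctbp1 and Ctbp2 -0.13 and -0.10, and the histone deacetylase gene Hdac3 -0.44. The ubiquitin ligase genes Fbxw7, Wwp1 and Smurf1 had 0.50, 0.07 and -0.46. The list's median was -0.09, beside -0.05 for all measured genes.

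Upstream of Klf2 and Klf4, the kinases MEK5 and ERK5 act through MEF2 factors in endothelium. Of 7 measured genes 1 was at least 2-fold higher, beside 3.56% of all measured genes. That gene was Mef2c, which read 393 at day 5 and 3138 at day 12. Mef2d and Mef2a had log2 ratios of 0.87 and 0.83 in their brightest probe sets, and 0.12 and 0.20 in their lowest ones. The kinase genes were not higher by 2-fold, with -0.11 for Mapk7 (ERK5), -0.23 for Map2k5 (MEK5), -0.64 for Map3k3 and 0.54 for Map3k2. The other measured probe set of Map3k2 had 0.01, and those of Map2k5 ran from -0.31 to 0.20. The list's median was 0.54, the value of Map3k2, and 0.01 to 0.68 under the alternatives.

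Immediate early genes, which are switched on together with Klf2, Klf4, Klf6 and Klf10 after serum or stress, were split. Of 19 measured, 2 were at least 2-fold higher and none lower, beside 3.56% and 1.73% of all measured genes. Ier3 read 814 and 2792 (3.43-fold), and Atf3, a stress-induced factor below the floor at day 5, read 24.6 and 172 (at least 3.70-fold). Myc, Nr4a1, Junb and Fos had log2 ratios of 0.92, 0.86, 0.75 and 0.66, while Egr2, Egr3 and Egr1 had -0.71, -0.39 and -0.38. Ccn1 had a log2 ratio of 0.58 on its brightest probe set, but its 4 measured probe sets ran from -1.46 to 0.58. The median was 0.23, and under the alternatives 1 to 3 genes were at least 2-fold higher and 0 to 1 at least 2-fold lower. The 1 lower gene was Ccn1, without probe sets of shared sequence.

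**Figure D3:**
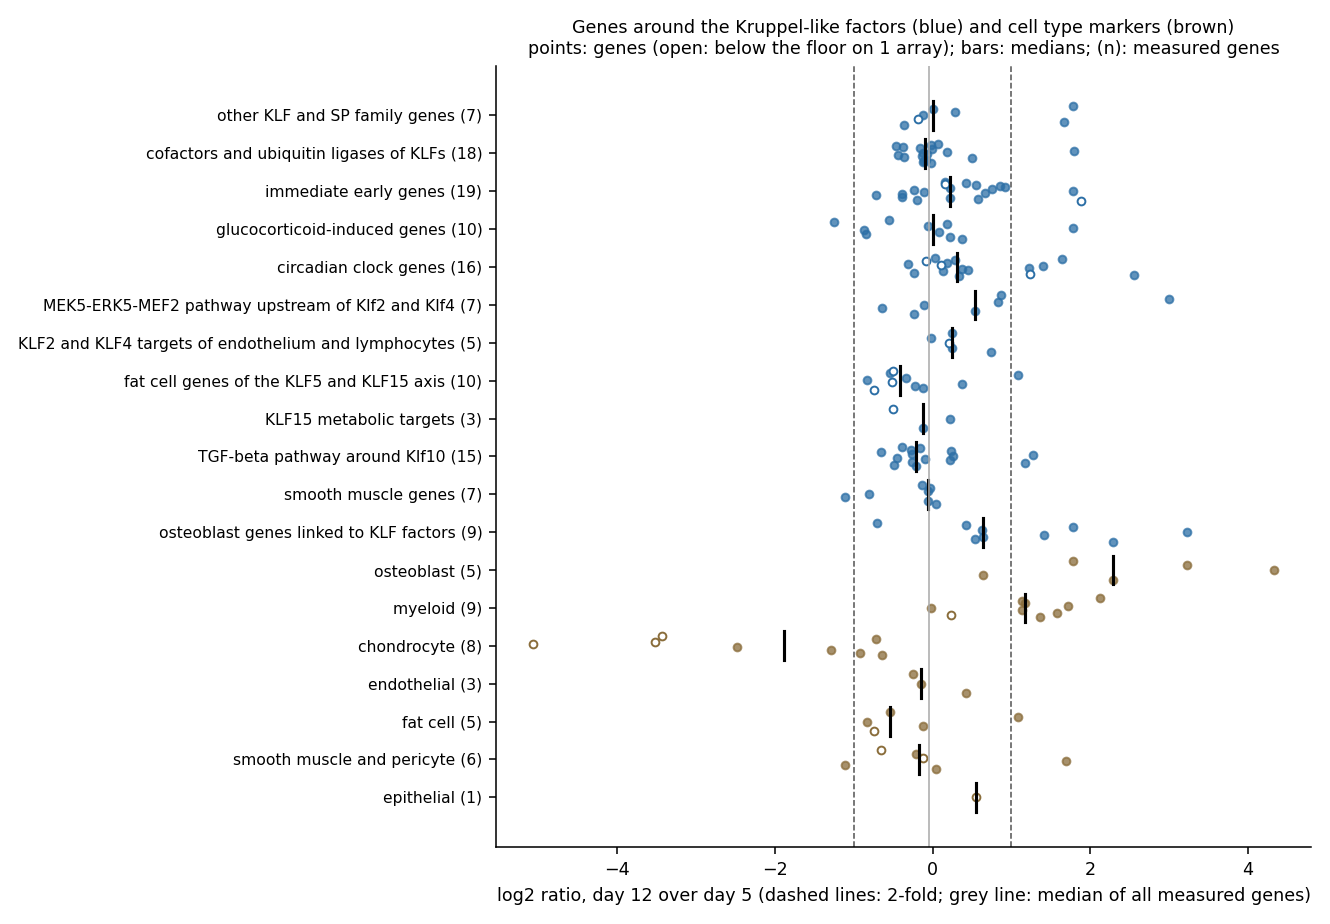
Log2 ratio of day 12 over day 5 for each measured gene (points) of 12 lists around the Kruppel-like factors and of cell type marker lists, with each list's median as a bar and the number of measured genes in brackets. Mef2c, Bhlhe40 and Sap30 are the rightmost points of their lists, and the TGF-beta list has its median at -0.21 with 2 genes past 2-fold.

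The circadian clock drives Klf9, Klf10 and Klf15 in several tissues, and 5 of 16 measured clock genes were at least 2-fold higher, none lower. Among all measured genes the shares were 3.56% higher and 1.73% lower. Bhlhe40, a clock repressor that is also induced by hypoxia, read 312 and 1835 (5.88-fold). Rora, an activator of the clock, read 187 and 584 (3.12-fold), and its 6 measured probe sets had log2 ratios from 0.80 to 1.99. Npas2 was 2.65-fold and Nfil3 2.33-fold higher, and Ciart was at least 2.36-fold higher. The core genes Arntl, Clock, Per1 and Cry1 had log2 ratios of 0.34, -0.24, 0.18 and 0.13. Npas2 and Ciart were not measured once the floor was raised to the 75th percentile, Npas2 had 0.67 when all its probe sets were averaged by the median, and 3 to 5 clock genes were higher over the alternatives. The time of day at collection is not given in the labels.

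Glucocorticoids induce Klf9 and Klf15. A list of other genes they induce, taken with the receptor gene Nr3c1, did not move in 1 direction. Of 10 measured, 5 had a log2 ratio above 0. At least 2-fold higher was 1 and lower 1, beside 3.56% and 1.73% of all measured genes. Mt2, a metallothionein also induced by metals, read 239.7 and 828 (3.45-fold higher). Sgk1, a kinase, read 862 and 363 (2.37-fold lower). Nr3c1 had a log2 ratio of -0.06, Fkbp5 0.08, Tsc22d3 -0.56, Errfi1 -0.84 and Hsd11b1 -0.87. Cebpd, Dusp1 and Per1 had 0.37, 0.22 and 0.18. The measured probe sets lay on both sides of 0 for Tsc22d3 (-0.56 to 0.28) and Nr3c1 (-0.47 to 0.14). The median was 0.01.

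Of 15 measured genes of the TGF-beta pathway, which induces Klf10, 2 were at least 2-fold higher and none lower. The shares over all measured genes were 3.56% higher and 1.73% lower. The ligand gene Tgfb1 read 66.2 and 160.4 (2.42-fold), and Skil, a repressor of the pathway, read 398 and 899.6 (2.26-fold). Tgfb1 and Skil had 1 measured probe set each. A median that took in their probe sets below the floor gave log2 ratios of 0.61 and 0.56, short of 2-fold. The median over measured probe sets gave 1.28 and 1.18. Tgfb1 was not measured with the 75th percentile floor. Tgfb3, Ski and Smad6 had log2 ratios of -0.65, -0.49 and -0.46, and the feedback gene Smad7 had 0.26. The median was -0.21.

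Of 9 measured osteoblast genes linked to KLF factors, 4 were at least 2-fold higher (as were 3.56% of all measured genes) and none lower. They were Ibsp, Alpl, Sp7 and Dlx5, and the list's median was 0.63. Tnfrsf11b, the RANKL decoy gene that Klf10 is known to affect, read 573 and 771, a log2 ratio of 0.43. Tnfsf11, the RANKL gene itself, read 73.2 and 44.8, a log2 ratio of -0.71 and the only one below 0 in the list. Its day 12 reading lay at the floor of 44.8.

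**Figure D4:**
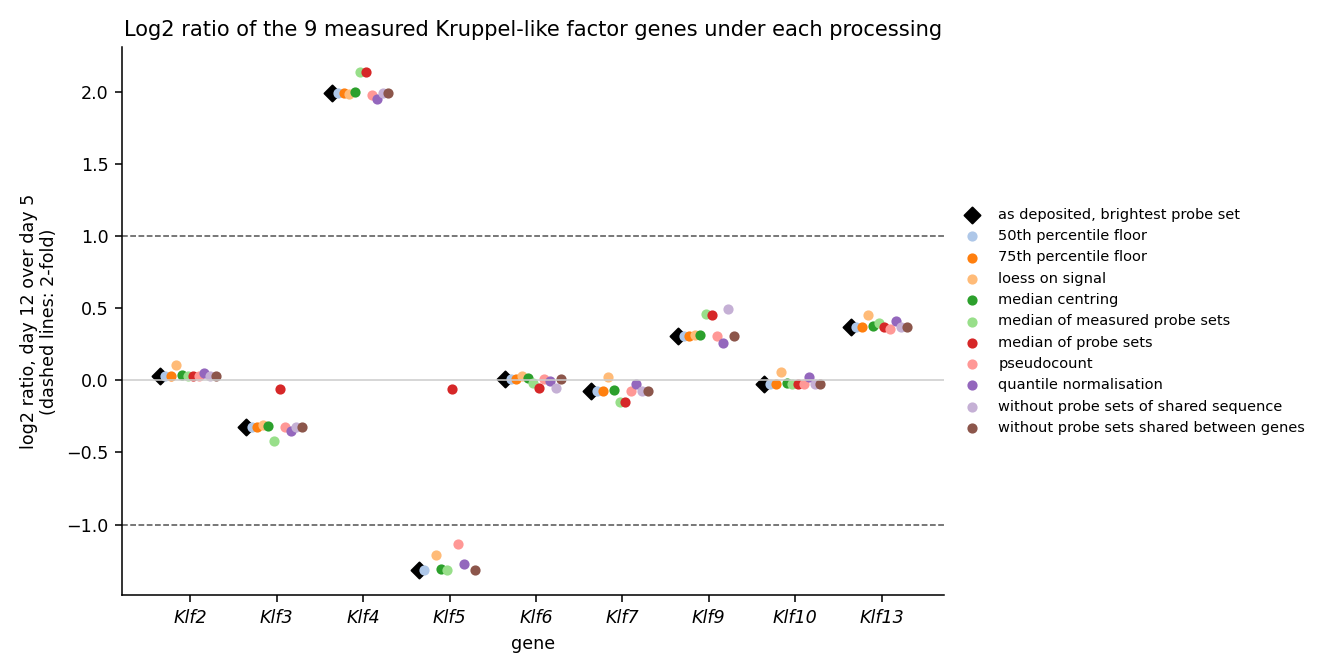
Log2 ratio of day 12 over day 5 for the 9 measured Kruppel-like factor genes as deposited (diamonds) and under 10 other settings (circles). Klf4 stays between 1.95 and 2.14, and Klf5 stays past 2-fold except at -0.06 with the median of all probe sets (the ratio of the floors), with no value under 2 settings.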

How the data were processed

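Total RNA (5 µg per sample) was labelled with biotin and hybridised to 1 array per day, per the labels' protocols. The authors deposited signal intensity for 45101 probe sets, made with GCOS 1.4 and MAS5 per the submitters' processing notes, with no other settings given in the sources used here. The mean after trimming 2% at each end was 200.0 on both arrays, so a change in total RNA per cell would not show. With 1 array a day, precision is limited by the number of arrays. Of the probe sets, 64 were controls, 34945 had 1 gene symbol, 932 several and 9160 none, by the platform annotation with 34741 symbols kept or updated through RefSeq's GRCm38.p6 table.

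The brightest probe set by mean log2 signal stood for a gene. Values under an array's 60th percentile were raised to it, so a ratio with 1 such value is a bound. Genes past 2-fold were counted, with no test, and every list count is read beside 3.56% higher and 1.73% lower among all measured genes. Other scalings (by the median, by quantiles and by loess), a floor at the 50th or the 75th percentile, no floor but a pseudocount of 16, the median over probe sets, leaving out probe sets ending in _s_at, _x_at or _a_at, and thresholds of 1.5-fold and 3-fold were tried as alternatives. The maker uses _a_at for transcripts of 1 gene, so a run without only _s_at and _x_at was added after seeing the data, as were a median over measured probe sets and the use of all these alternatives on list genes. The members and 20 gene lists were chosen with earlier results of these data known. Named were all members, list genes past 2-fold or among the 4 largest ratios, all measured family genes and up to 3 bright markers per cell type. Further genes and markers named in the text, such as faint markers and core clock genes, were chosen after their values were seen. Code was tested on simulated data. Python 3.11.15, numpy 2.4.6, pandas 2.3.3, statsmodels 0.14.6 and matplotlib 3.10.9 were used.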

Additional observations from a re-analysis of the deposited data

How the results depend on the processing

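Klf4 was the only member at least 2-fold higher under all 10 other settings and at both other fold thresholds. The count of members at least 2-fold lower was 1, and it was 0 with the 75th percentile floor, with the median over all probe sets, without probe sets of shared sequence and at 3-fold, in each case because Klf5 was not measured, was combined with probe sets below the floor or missed the stricter threshold. With a pseudocount Klf5 had a log2 ratio of -1.14. The members' median log2 ratio moved by less than the 0.17 between probe sets of 1 gene. Genes near 0 (Klf6, Klf7 and Klf10) changed sign. The run without only the probe sets shared between genes and the median over measured probe sets, both chosen after seeing the data, kept both counts at 1. Among the genes past 2-fold in the 12 lists around the Kruppel-like factors, Npas2, Skil and Tgfb1 fell short with the median over all probe sets. That median took in probe sets below the floor. Npas2, Tgfb1, Atf3 and Ciart were not measured with the 75th percentile floor. Ier3 and Dlx5 had no probe set left without those of shared sequence. No gene past 2-fold in these 12 lists turned its direction, but Ccn1, at 0.58, was at least 2-fold lower without probe sets of shared sequence. Marker genes were followed as counts only. The myeloid count fell from 7 to 6 of 9 with the median over all probe sets and with the pseudocount. No paired analysis was possible because there was 1 array per day.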

Other observations

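Genes that Klf4 is known to repress in smooth muscle had a median log2 ratio of -0.06, beside -0.05 for all measured genes. Of 7 measured smooth muscle genes 1 was at least 2-fold lower and none higher, beside 1.73% and 3.56% of all measured genes. Their relation to the Klf4 result was not tested. Cnn1 (calponin) read 1799 at day 5 and 830 at day 12 (2.17-fold lower), and Lmod1 had a log2 ratio of -0.81. Tagln and Acta2 had -0.14 and 0.05, with -0.89 in the other measured probe set of Acta2. Myl9, Cald1 and Smtn had -0.06, -0.06 and -0.03, with -0.42 in the lowest probe set of Cald1. Of 6 measured smooth muscle and pericyte markers 1 was at least 2-fold higher, Cspg4 (NG2) at 3.25-fold, and 1 at least 2-fold lower, Cnn1, with a median of -0.17. For Rgs5 (70.4, then below the floor) the log2 ratio was at most -0.65, and Pdgfrb had -0.22.

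Genes known as KLF2 and KLF4 targets in endothelium and lymphocytes gave no count past 2-fold among 5 measured members. Cdkn1a, a cell cycle inhibitor, had a log2 ratio of 0.74, Thbd (thrombomodulin) 0.25, Nfe2l2 0.24 and S1pr1 -0.02. Nos3, below the floor at day 5, read 27.5 and 53.9, a log2 ratio of at least 0.21. Itgb7, Ccr7, Ednrb and Tek were below the floor on both arrays. Of 10 measured fat cell genes of the KLF5 and KLF15 axis, 2 had a log2 ratio above 0. These were Lpl (lipoprotein lipase), 2.11-fold higher, and Cebpd, at 0.37. Fabp4 and Pparg had -0.83 and -0.54, with -0.19 in the other measured probe set of Fabp4. Cebpa had -0.12, and Adipoq, below the floor at day 12, had at most -0.75. Dlk1 read 63.9 and 30.6, also below the floor at day 12. None was counted as at least 2-fold lower, but 2 were with the floor at the 50th percentile and 1 with the pseudocount. The list's median was -0.42, and 0.37 with the 75th percentile floor, which left 3 measured genes. Of 9 metabolic targets of KLF15, 6 were below the floor on both arrays. Of the others, Bckdha and Bckdhb, of branched-chain amino acid breakdown, had log2 ratios of -0.13 and 0.22, and Slc2a4, the insulin-responsive glucose transporter, below the floor at day 12, had at most -0.50.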
